A study of Mus musculus with 16 samples.

Results

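Mesothelial cells are the flat, epithelium-like cells that line the peritoneal cavity, and they can come away with a peritoneal wash. They carry mesothelin and uroplakin 3B on their surface, hold the keratins of simple epithelia in their cytoskeleton and keep the transcription factor WT1, whereas macrophages are not known for any of these. The fibroblasts of the connective tissue beneath them are known for the fibrillar collagens. Of these, type I contains the chain encoded by Col1a1 and type III is built from the chain encoded by Col3a1. No measurement here assigns the collagen RNA to a cell type. The genes described here are 7 mesothelial genes, Msln, Upk3b, Krt7, Krt8, Krt18, Krt19 and Wt1, taken as every probe whose platform annotation names one of them. That gave 9 probes of 24607, for 7 of 15161 annotated genes, with a pair of probes each for Krt8 and Upk3b. The probes of Col1a1 and Col3a1 were set beside them, to ask whether the mesothelial signal and the collagen signal vary together across animals.

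The RNA came from peritoneal macrophages elicited with thioglycollate, an irritant that draws macrophages into the cavity, and was hybridised to BeadChips of the type Illumina Mouse Ref-8 v1.1. The 12 animals were 6 SR-uPA+/0 transgenic and 6 nontransgenic females, each an independent biological replicate, and per the labels the transgene makes macrophages overexpress urokinase plasminogen activator (uPA). All were Apoe-/-, ate a Western diet from 5 weeks of age for 10 weeks and were 15 weeks old. Cells were harvested 5 days after thioglycollate and freed of nonadherent cells after 2 h of adhesion, and 1 pool of the 6 RNAs of each genotype was hybridised 2 times. The adhesion step is the only purification that the labels give, so other adherent cells were not removed by a sort.

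Values are the deposited intensities, on a linear scale from which a background had been subtracted, so that an unexpressed gene lies around 0 and can be negative. A signal was counted as above noise where it exceeded 57.0 units, a limit taken from the spread of the negative values, and 9531 to 9544 probes lay above it on each array. Intensities of different probes are not comparable with each other, so no gene is ranked against another. The brightest of the 8 macrophage genes tested were Lyz2, which encodes lysozyme, at 52919 ± 5283 units in animals labelled transgenic and 51485 ± 4961 units in nontransgenic animals, and Cd14, an endotoxin coreceptor, at 15613 ± 3404 units in animals labelled transgenic and 17838 ± 1037 units in nontransgenic animals (SD, n = 6 each). The probe for Plau, which encodes uPA, read 1660 ± 972 units in animals labelled transgenic and 1825 ± 1103 units in nontransgenic animals, with a difference of -0.10 in log2 and a standard error of 0.42 (adjusted p = 0.967 by limma). Plau therefore does not separate the labels, where its probe lies relative to the transgene was not stated, and every direction below refers to the genotype as labelled. Transgenic 1 and transgenic 6 were the animals least like the others, with a median correlation across tested probes of 0.969 and 0.973 to the other animals, against 0.976 to 0.980 for the remaining animals.

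Msln, Krt7 and Wt1 were above noise in all 12 animals, Krt8, Krt18 and Upk3b were above noise in some animals of each genotype, and Krt19 was at noise throughout. None of the 6 members with a testable probe passed the test of genotype across all probes. Wt1 came nearest, with 287 ± 68.2 units in transgenic animals and 521 ± 172 units in nontransgenic animals, while Msln differed by little, with 223 ± 28.4 units in transgenic and 202 ± 42.1 units in nontransgenic animals (SD, n = 6 each). Over the same arrays Col1a1 was lower in transgenic animals and passed the test, and Col3a1, which was below noise in every transgenic animal, passed under the main settings but not under all alternatives.

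**Figure D1:**
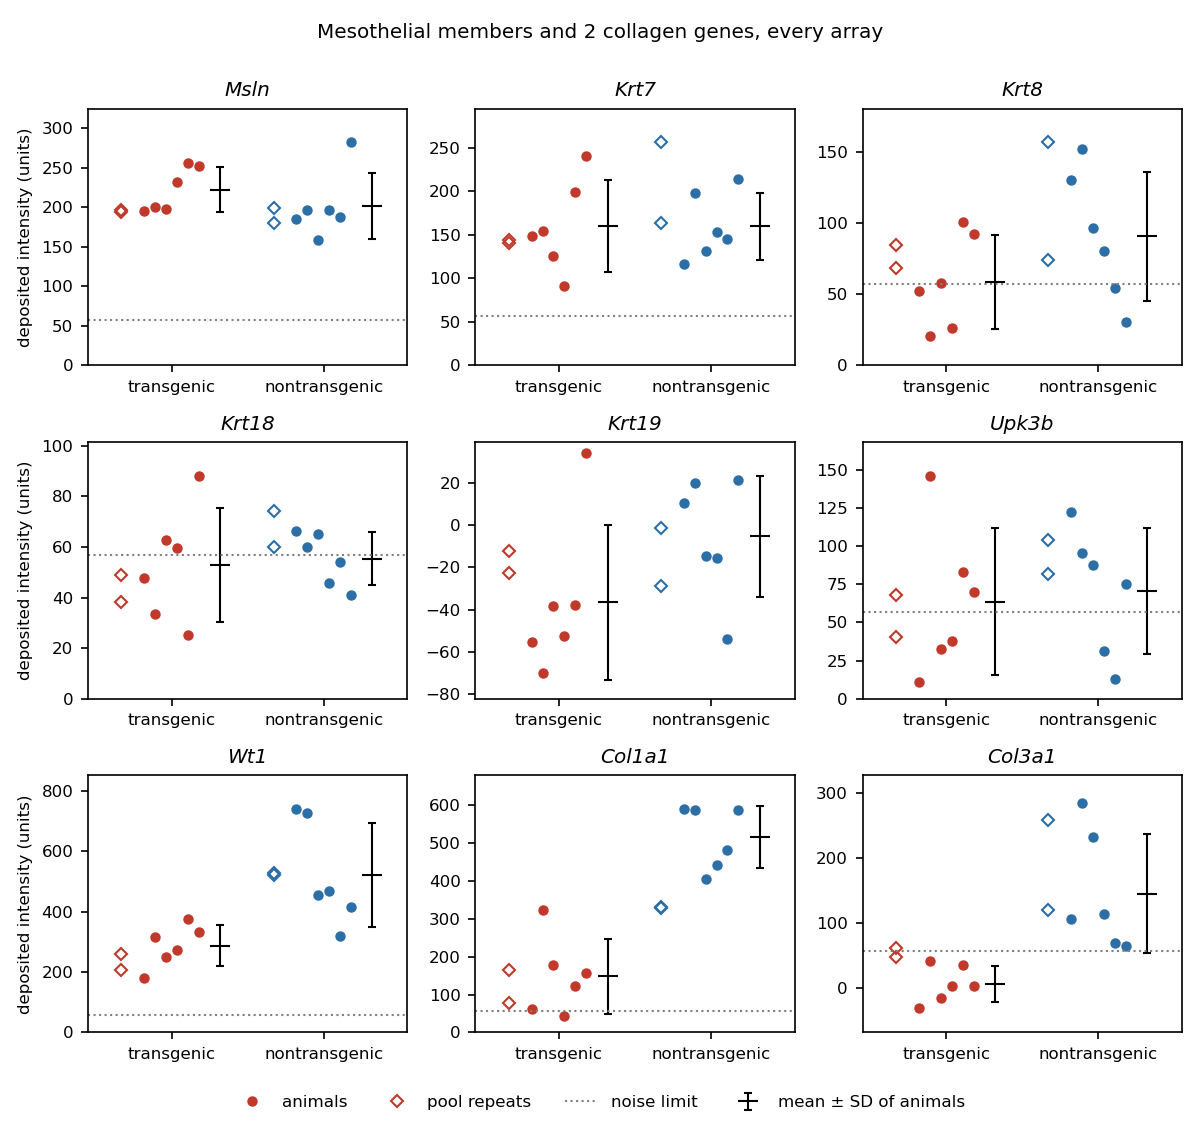
Deposited intensity in linear units (vertical axis) of the 7 mesothelial genes and 2 collagen genes, in transgenic animals (red) and nontransgenic animals (blue), with the brightest probe of each gene; filled points are animals, open diamonds are repeat hybridisations of a pool, bars are mean ± SD of 6 animals and the dotted line is the noise limit of 57.0 units. Genotypes overlap for all 7 mesothelial genes and are apart for Col1a1 and Col3a1, and Krt19 lies below the limit on every array.

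Mesothelin, encoded by Msln, is a glycoprotein anchored in the surface membrane of mesothelial cells. Its intensity in transgenic animals was lowest at 196, had a median of 217 and was highest at 256 units, and in nontransgenic animals the lowest, median and highest values were 159, 193 and 283 units. The highest value, 283 units, belonged to nontransgenic 6, and the other nontransgenic animals lay at or below 197 units. Transgenic animals thus lay inside the nontransgenic range, and the log2 difference, transgenic minus nontransgenic, was 0.10 (95% interval -0.13 to 0.34, limma adjusted p = 0.847). This was the narrowest of the members, with a within-genotype SD of 0.16 on the log2 scale, against a median of 0.24 over all tested probes. On this scale, normexp had added a median of 96.9 units to a value before the logarithm, which understates the fold change of dim probes.

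Upk3b encodes uroplakin 3B, a membrane protein found on mesothelium. The brighter of its probes read lowest at 11.3, median 54.1 and highest at 146 units in transgenic animals, and 12.8, 81.5 and 122 units in nontransgenic animals. It was above noise in 3 of 6 transgenic and 4 of 6 nontransgenic animals, so it varied from animal to animal within a genotype more than between them, and its within-genotype SD of 0.40 was the largest among the 6 testable probes. Transgenic 2, nontransgenic 1, nontransgenic 2 and nontransgenic 3 were the 4 highest, and transgenic 1 and nontransgenic 5 were the lowest. The log2 difference was -0.07 (95% interval -0.50 to 0.35, limma adjusted p = 0.951). The second Upk3b probe stayed between -46.0 and 17.3 units in all animals and was never above noise.

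The keratins of simple epithelia form filaments from pairs of an acidic and a basic partner, with Krt7 and Krt8 encoding basic and Krt18 and Krt19 acidic keratins. Krt7 gave a clear signal in every animal, with lowest, median and highest values of 91.3, 151 and 240.3 units in transgenic animals and 117, 149 and 214 units in nontransgenic animals. The 2 genotype means were nearly equal, 159.7 ± 52.9 units in transgenic and 159.8 ± 38.3 units in nontransgenic animals, and the nontransgenic range lay wholly inside the transgenic one. The log2 difference was -0.01 (95% interval -0.32 to 0.29, limma adjusted p = 0.989).

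Krt8 was dimmer, with 20.3, 55.1 and 101 units as the lowest, median and highest transgenic values and 30.7, 88.5 and 152 units as the nontransgenic ones. Nontransgenic 1 and nontransgenic 2 were the highest animals, at 130 and 152 units, yet the genotypes overlapped over most of their range. The log2 difference was -0.26 (95% interval -0.63 to 0.10, limma adjusted p = 0.733). The second Krt8 probe lay between -2.97 and 40.3 units and was never above noise.

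Krt18, the usual partner of Krt8 in filaments, straddled the noise limit, with 25.4, 53.8 and 88.3 units as the lowest, median and highest transgenic values and 41.0, 57.1 and 66.3 units as the nontransgenic ones. In each genotype 3 of 6 animals were above noise, and the log2 difference was -0.03 (95% interval -0.28 to 0.21, limma adjusted p = 0.960). Krt18 and Krt8 are neighbouring genes in the mouse RefSeq annotation (GRCm38.p6) and partners in filaments, but across animals of the same genotype their correlation was 0.33 (r, n = 12, unadjusted permutation p = 0.296). It was 0.14 among transgenic and 0.78 among nontransgenic animals (exact permutation p = 0.751 and 0.0736), and 0.65 without the 2 animals farthest from the median of Krt18, transgenic 5 and transgenic 6. For both genes nontransgenic 1 to 3 all lay above nontransgenic 4 to 6. Krt19 read between -69.8 and 34.2 units in transgenic animals and between -53.7 and 21.6 units in nontransgenic animals. None of the 16 arrays had Krt19 above noise, which leaves its level undetected at this sensitivity and gives no fold change.

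Wt1 encodes a zinc finger transcription factor of mesothelium and of mesenchymal cells that derive from it. In transgenic animals its lowest, median and highest values were 181, 294 and 374 units, and in nontransgenic animals 319.9, 462 and 739.7 units. The genotypes overlapped, because transgenic 5 and transgenic 6 lay above nontransgenic 5, the lowest nontransgenic animal, whereas the other 4 transgenic animals lay below it. The log2 difference was -0.66 (SE 0.18, 95% interval -1.03 to -0.29), which reached an unadjusted p of 0.00165 but an adjusted p of 0.127 by limma, and an exact permutation test of this single probe gave p = 0.00649 (two-sided). Among 10521 tested probes, 121 had a more negative difference. Over the repeat hybridisations of the pools Wt1 read 207 and 258 units in the transgenic pool and 529 and 520.3 units in the nontransgenic pool.

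Read as a group, 0 of the 6 testable members passed at an adjusted p of 0.05 by limma and 1 of them, Wt1, had an unadjusted p under 0.05, beside 0.732% of all tested probes that passed (0.105% higher and 0.627% lower in transgenic animals) and 8.54% that had an unadjusted p under 0.05. The median difference of the members was -0.05, against 0.01 over all 10521 probes. For all 7 genes the deposited values of the genotypes overlapped, where 0.732% of tested probes had every transgenic value below every nontransgenic one and 0.352% had every transgenic value above.

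The collagen genes behaved otherwise over the same animals. Col1a1 had lowest, median and highest values of 44.5, 140.3 and 322 units in transgenic animals and 406, 536 and 590.5 units in nontransgenic animals, with no overlap, and fell by 1.41 on the log2 scale (SE 0.21, limma adjusted p = 0.00260). Col3a1 was above noise in 0 of 6 transgenic and 6 of 6 nontransgenic animals, with -30.8 to 41.4 units in transgenic and 64.5 to 284 units in nontransgenic animals. It therefore has only a bound, and it was at least 1.48-fold lower in transgenic animals. That fold was taken on the scale after normexp, which understates the fold change of dim probes. The genotype test, made on its values without that bound, called it (limma adjusted p = 0.0173). That call was lost when transgenic 1 and transgenic 6 were left out (adjusted p = 0.0642), when no filter on dim probes was set (adjusted p = 0.0609) and when dim values were raised to the noise limit (adjusted p = 0.364). In this bulk RNA, fewer cells of a type and less RNA in each such cell cannot be told apart.

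Other marker lists moved with genotype beside these genes. Over all tested probes 0.627% were called lower and 0.105% higher in transgenic animals. Of 15 testable fibroblast genes 8 were lower in transgenic animals and 0 higher, and their summed intensity was 2236 to 7964 units in transgenic animals and 10675 to 20217 units in nontransgenic animals. The called ones were Col1a1, Col3a1, Col5a1, Col6a1, Loxl1, Serping1, Serpinf1 and Serpinh1, the last encoding the collagen chaperone HSP47. The brightest of the list were Col6a1 and Dcn, which encodes decorin and had 2005 ± 1197 units in transgenic and 5343 ± 1780 units in nontransgenic animals (SD, n = 6 each, limma adjusted p = 0.0665), while the fibroblast genes Lum, Postn, Fbln1 and Col5a2 were never above noise. Of 9 testable neutrophil genes 4 were higher in transgenic animals, S100a8, S100a9, Pglyrp1 and Retnlg, and the summed intensity of the list was 12819 to 46104 units in transgenic animals and 5066 to 18594 units in nontransgenic animals. Both sums are weighted to the brightest probes, Dcn in the fibroblast list and S100a8 and S100a9 in the neutrophil list. The part of either shift in the values of the mesothelial genes was not tested. The macrophage list had 0 of 8 testable genes called, and Msr1 of that list was never above noise in any animal.

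A wider list of 24 other mesothelial genes, of which 21 are on the array, gave 8 testable genes. In the genotype test by limma 0 of the 8 were called, 2 had an unadjusted p under 0.05, and the median difference was -0.01. Over all tested probes 0.732% were called and 8.54% had an unadjusted p under 0.05. Of the list, Upk1b, Lrrn4, Gpm6a, Bnc1, Efemp1 and Rspo1 were never above noise in any animal, and 10 of the 21 were like this. Nkain4 was above noise in 5 of 6 transgenic and 6 of 6 nontransgenic animals. Aldh1a2 was so in 5 and 3 animals, and Gata4 in 3 and 4. The brightest of the list were Pdpn, which encodes the membrane protein podoplanin, at 6727 ± 1434 units in transgenic and 7511 ± 1415 units in nontransgenic animals, and Slpi, which encodes a secreted protease inhibitor, at 5440 ± 2067 units in transgenic and 4466 ± 1677 units in nontransgenic animals (SD, n = 6 each). Neither is confined to mesothelium, and macrophages can express both. Cav1, a protein of caveolae, had 239 ± 130.3 units in transgenic and 533 ± 162 units in nontransgenic animals, a log2 difference of -0.95 (limma adjusted p = 0.0623). Ptgis, the prostacyclin synthase gene, had 593 ± 361 units in transgenic and 1184 ± 435 units in nontransgenic animals, a log2 difference of -0.96 (limma adjusted p = 0.161). Both are also expressed by endothelial cells and fibroblasts.

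Markers of other epithelia and of the vessel and gut wall were read beside these. Of the other keratin and epithelial genes 3 were testable and 0 called, beside 0.732% of all tested probes. Krt20, Krt13, Krt23, Cldn3 and Cldn7 were never above noise. No smooth muscle gene was testable, and 1 endothelial gene was, Vwf, which encodes von Willebrand factor, with 1657 ± 404 units in transgenic and 2391 ± 267 units in nontransgenic animals and a log2 difference of -0.54 (limma adjusted p = 0.205).

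**Figure D2:**
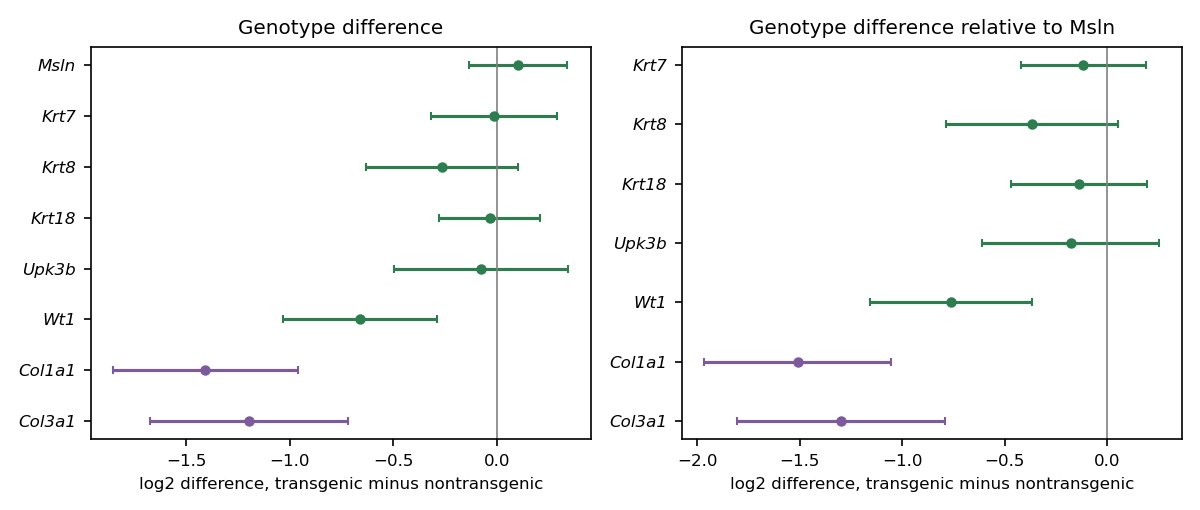
Log2 difference, transgenic minus nontransgenic, with 95% intervals from limma (horizontal axis) for 6 mesothelial genes (green) and 2 collagen genes (purple), on the left for each gene itself and on the right after subtracting Msln of the same array. The intervals of Msln, the keratins and Upk3b cover 0 on the left, Wt1 lies at -0.66, and Col1a1 lies at -1.41. The Col3a1 estimate is drawn from transgenic values below noise, so its size is not measured.

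Whether mesothelial and collagen signals differed in their response to genotype was tested directly by subtracting the mean of Col1a1 and Col3a1 (log2, same array) from every probe. Relative to this collagen mean all 6 members were higher in transgenic animals and passed, but so did 99.3% of all 10519 tested probes, so this sets the members no further from the collagens than the array as a whole. Msln was higher by 1.40 and Krt7 by 1.29 on the log2 scale (SE 0.26 each), and every transgenic animal lay above every nontransgenic animal for both, and also for Krt18 and Upk3b (exact permutation p = 0.00216 for each, two-sided, the smallest that 6 against 6 allows). The collagen means do not overlap themselves, and 73.8% of 10519 probes were apart in this way. Wt1 was the member closest to the collagens, at 0.64 (SE 0.26, limma adjusted p = 0.0150, exact permutation p = 0.00433), and 119 of 10519 probes lay closer still or below them. After the subtraction limma gave all 6 members the same SE, 0.26. That SE and its p therefore do not measure the spread of a single gene, whereas the permutation test uses the gene's own values. When values below the noise limit were raised to it, the Wt1 difference was 0.32 and did not pass (adjusted p = 0.126).

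The reverse comparison took Msln of the same array as the base. Relative to Msln, Col1a1 was lower in transgenic animals, at -1.51 in log2 (SE 0.22, limma adjusted p = 5.91e-04) and Col3a1 at -1.30 (SE 0.24, limma adjusted p = 0.00808), a test passed by 0.960% of 10520 probes (0.0665% higher and 0.894% lower), with 7.81% at an unadjusted p under 0.05. The Col3a1 value again rests on dim transgenic signals and was -0.67 (adjusted p = 0.345) with those raised to the noise limit. Krt7, Krt8, Krt18 and Upk3b differed from Msln by -0.12 to -0.37 and did not pass (limma adjusted p of 0.691 to 0.918). Wt1 stood between, at -0.76 relative to Msln (SE 0.19, limma adjusted p = 0.0604, exact permutation p = 0.00433), with 5 of 6 transgenic animals below every nontransgenic animal. It passed without nontransgenic 5 (adjusted p = 0.0408), without nontransgenic 6, the animal with the highest Msln (adjusted p = 0.0152), and with array weights (adjusted p = 0.0131).

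Over both genotypes together, Upk3b and Wt1 were the members with the highest correlation to the collagen mean once genotype means were removed. After removing the genotype means, Upk3b correlated with the collagen mean over the 12 animals at r = 0.82 (permutation p = 0.00192, adjusted p = 0.0422 over 22 relations) and rho = 0.86 (permutation p = 0.00222, adjusted p = 0.0426). The relation was r = 0.95 among transgenic animals (exact permutation p = 0.00556, adjusted p = 0.122) and r = 0.64 among nontransgenic animals (exact permutation p = 0.164, adjusted p = 0.361), and r = 0.76 without the 2 animals farthest from the median collagen mean, transgenic 1 and transgenic 4. The transgenic value includes many signals below noise, since Col3a1 was below it in all 6 transgenic animals and Upk3b in 3 of them. Over the 12 animals r was also taken after raising values below the noise limit to it, and was 0.71 (permutation p = 0.0173). The highest transgenic Upk3b signal, 146 units, was in transgenic 2, which also had the highest transgenic Col1a1, 322 units, and the lowest, 11.3 units, was in transgenic 1, where Col1a1 was 63.0 units. In the fit across all probes the slope was 0.92 log2 units of Upk3b per log2 unit of the collagen mean (SE 0.21, limma unadjusted p = 5.18e-04, adjusted p = 0.341). That made Upk3b 15th of 10519 probes by p, while 0 probes passed and 5.43% had an unadjusted p under 0.05.

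Wt1 gave r = 0.66 with the collagen mean (permutation p = 0.0121, adjusted p = 0.0885) and rho = 0.74 (permutation p = 0.0141, adjusted p = 0.103), with r = 0.72 among transgenic animals (exact permutation p = 0.106) and 0.74 among nontransgenic animals (exact permutation p = 0.0958). Without the 2 farthest animals r was 0.57, and without transgenic 1 it was 0.55 (permutation p = 0.0515). Against Col1a1 alone it was 0.38 (permutation p = 0.162) and against Col3a1 alone 0.66, whereas Upk3b had 0.64 and 0.67 with them. Col1a1 and Col3a1 themselves correlated at 0.27 (permutation p = 0.384). Msln, Krt7, Krt8 and Krt18 had r of -0.09, 0.32, 0.28 and -0.14 with the collagen mean, and none had an unadjusted permutation p under 0.05. Krt8 had r = -0.068 among transgenic animals (exact permutation p = 0.882) and r = 0.80 among nontransgenic animals (exact permutation p = 0.0472, adjusted p = 0.260; rho = 0.89), the highest nontransgenic r of the members, and the difference between genotypes was not tested. Without single animals, the r of Krt8 over the remaining animals ran from 0.095 to 0.77 (permutation p of 0.00874 to 0.798). The highest of these r was without transgenic 2. For Krt8, Krt18 and Upk3b, nontransgenic 1 to 3 all lay above nontransgenic 4 to 6. Krt8 read 96.6 to 152 units in the former and 30.7 to 80.3 units in the latter. Transgenic animals did not divide in this way. Replicate numbers are only accession order, and the part of that order in these r was not tested.

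**Figure D3:**
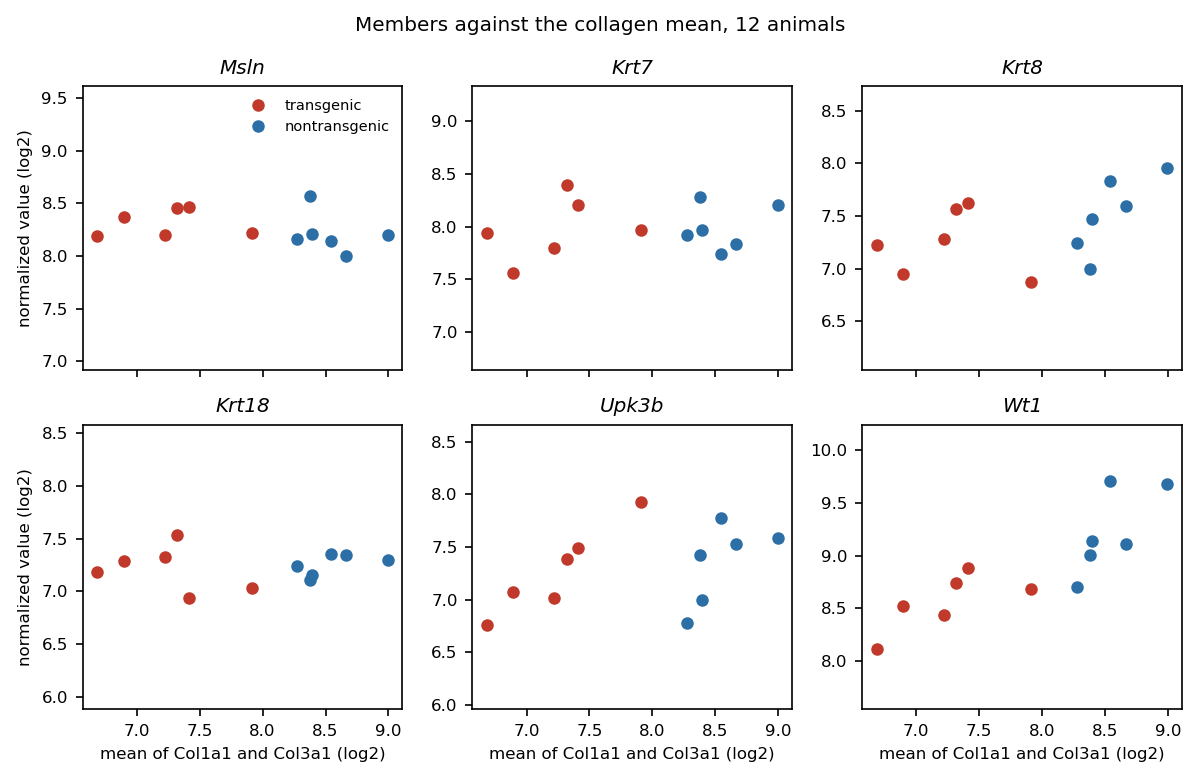
Normalized log2 value of 6 mesothelial genes (vertical axes, all spanning the same log2 width) against the mean log2 value of Col1a1 and Col3a1 (horizontal axis) in 6 transgenic animals (red) and 6 nontransgenic animals (blue), 1 point an animal. Upk3b has r = 0.95 with the collagen mean in transgenic animals, where Col3a1 is below noise throughout, and 0.64 in nontransgenic animals (exact permutation p = 0.164), Wt1 has 0.72 and 0.74, and the points of Msln are nearly level.

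The measured values of the members did not vary as a block among themselves. Krt8, Krt18 and Upk3b were below noise in some animals of each genotype, so a low r with them does not show separate variation. Over the 15 pairs of the 6 testable members, r after removing genotype means ran from -0.22 to 0.77 with a median of 0.19, and the sign was the same in both genotypes in 4 of the 15. The closest pair was Upk3b and Wt1, at r = 0.77 (permutation p = 0.00599, adjusted p = 0.0659) and rho = 0.83 (permutation p = 0.00387, adjusted p = 0.0426), with r = 0.79 among transgenic and 0.80 among nontransgenic animals and 0.74 without the 2 animals farthest from the median of Wt1. Msln and Krt7 formed a second pair at r = 0.60 (permutation p = 0.0348, adjusted p = 0.153), which was 0.81 without the 2 animals farthest from the median of Krt7, transgenic 6 and transgenic 4, and 0.51 without nontransgenic 6 (permutation p = 0.180). Msln and Krt18 had r = -0.81 among nontransgenic animals (exact permutation p = 0.0153, adjusted p = 0.260) and 0.12 among transgenic animals. Msln and Krt8 had -0.63 among nontransgenic and 0.61 among transgenic animals. Krt8 and Wt1 had r = 0.67 (permutation p = 0.0322, adjusted p = 0.153), with 0.36 among transgenic and 0.85 among nontransgenic animals. Without nontransgenic 1 and nontransgenic 2, the 2 animals farthest from the median of Wt1, it was 0.39. Without single animals it ran from 0.57 to 0.78. Among nontransgenic animals, r of Krt8, Krt18 and Upk3b carries the division by replicate number given above, and its part was not tested. When Msln was the term followed across all probes, 0 of 5 other members passed, 1 of them, Krt7, had an unadjusted p under 0.05 (limma slope 0.96, SE 0.44, unadjusted p = 0.0458, adjusted p = 0.620), and 7.94% of 10520 probes did so.

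**Figure D4:**
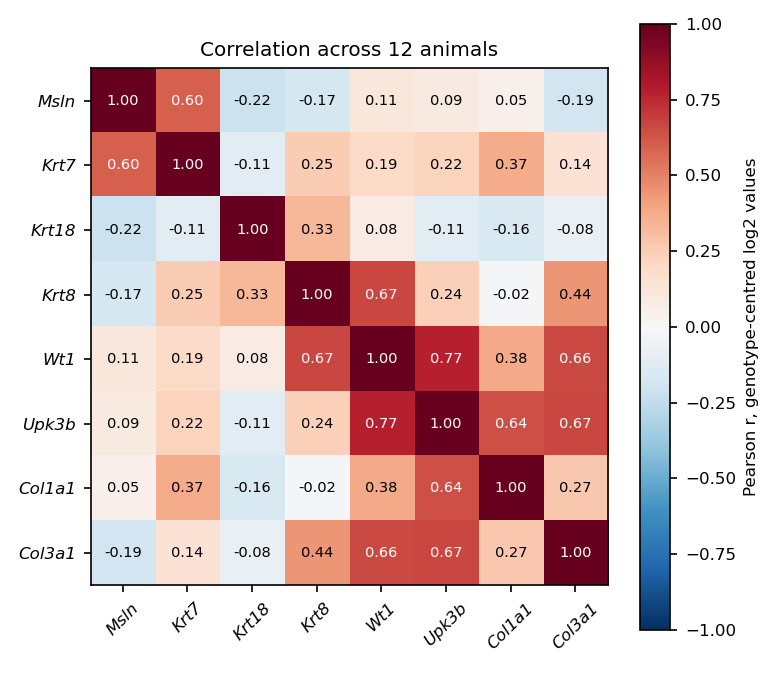
Pearson r of log2 values, after removing the mean of each genotype, between 6 mesothelial genes and 2 collagen genes over 12 animals; each cell holds r for the gene of its row and the gene of its column. Upk3b and Wt1 have the highest r of any pair of mesothelial genes, 0.77, and Msln pairs most closely with Krt7, at 0.60.

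With the collagen mean added to the genotype fit, the Wt1 difference was 0.16 (SE 0.33, limma adjusted p = 0.998) in place of -0.66, and Upk3b moved to 1.13 (SE 0.31, limma unadjusted p = 0.00219, adjusted p = 0.608). The collagen means of the genotypes do not overlap, so little of the genotype difference can be separated from the collagen level in that fit, and 1 probe of all tested passed.

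The genes whose pattern across the 12 animals was most like each member, again with genotype means removed and among 7498 genes, are given as a description and most have no role in mesothelium that is known here. For Msln they were Fto (r = 0.95), Spg21, Nup98, Klf16 and Rce1, and for Krt7 they were Col18a1 (r = 0.92), a basement membrane collagen chain, Sfxn3, Hmgb1, Adgrl1 and Gpr146. For Krt8 they were Olfml2b (r = 0.93), Psmb1, Nap1l4, Eif3j1 and Cd34, and for Krt18 they were Mrnip (r = 0.92), Cyp2a5, Pdlim4, Nol12 and Rps27. Upk3b had Rp9 (r = 0.92), Exoc3 (r = 0.88), Cd300ld3, Tent4a and Cse1l, of which Rp9 and Exoc3 also stood among the 5 closest to the collagen mean, at r = 0.91 and 0.90. Wt1 had Gosr1 and Col16a1 (r = 0.86 each), Esam, Smad5 and Alyref, where Col16a1 encodes a fibril-associated collagen chain and Esam an endothelial adhesion molecule. No member stood in the list of another.

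The pools, which are technical repeats of mixed RNA and entered no test, gave Msln at 196 and 194 units in the transgenic pool and 180.5 and 199 units in the nontransgenic pool. Col1a1 was 166 and 78.1 units in the transgenic pool and 328 and 332 units in the nontransgenic pool. The pool differences, transgenic minus nontransgenic, were 0.03 for Msln, -0.35 for Krt7, -0.27 for Krt8, -0.22 for Krt18, -0.33 for Upk3b, -0.92 for Wt1, -0.99 for Col1a1 and -0.87 for Col3a1 on the log2 scale. Both nontransgenic pool arrays read Col1a1 below every nontransgenic animal, and 1 transgenic pool array had Col3a1 above noise, at 61.5 units, where no transgenic animal did. Repeats of 1 pool differed by a median of 0.19 log2 over the tested probes in each genotype, and by 0.44 for Krt7 and 0.58 for Krt8 in the nontransgenic pool.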

How the data were processed

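Signals of 16 arrays, 12 animals and 4 repeats of 2 pools, were read from the authors' deposited table, whose values are linear intensities. Per the submitters' processing notes BeadStudio was used. Its columns run below 0 and share a distribution, so a background had been subtracted and the arrays normalized, by an unstated method. A second table of 32 columns (16 intensity and 16 detection columns) carries only running numbers that match no label and was not used. Probe names came from the platform annotation, which can be old.

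The 4 control probes were left out, and 24607 remained. The noise limit of each array was 1.64 times the root mean square of its negative values. Intensities went through limma (3.58.1, R 4.3.3) normexp (saddle, offset 16), were quantile normalized across animals and log2 transformed, and the 10521 probes above noise on at least 3 animals were tested with lmFit and eBayes, Benjamini-Hochberg adjusted over all of them at 0.05. The code was tested on simulated data. Single probes had an exact permutation test over all 924 assignments of animals to genotypes. Correlations used log2 values centred by genotype, with 100000 permutations within genotypes, or exact enumeration within 1 genotype. The number of arrays limits the precision. The labels do not place the arrays on the 2 chips, so whether chip and genotype coincide is not known, and chip entered no fit. In accession order, replicates 1 to 3 of both genotypes precede replicates 4 to 6. The first principal component of the tested probes held 18.9% of the variance. On it, replicates 4 to 6 were negative and replicates 1 to 3 were positive, except transgenic 2. The cause was not tested. Per the labels' protocols RNA integrity numbers were 8.9 to 9.7.

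The members, lists and tests were chosen with earlier results of these data known. Named genes are all members, Col1a1, Col3a1 and Plau, from each marker list those called, up to 4 by smallest p and the 2 brightest, and the 5 genes closest in pattern to each member. Nkain4, Gata4, the genes named as never above noise, the motif and the use of decorin (Dcn) in place of the collagen mean were chosen after values were seen. The alternatives changed the offset, normalization, filter, treatment of dim values, eBayes settings, array weights, collagen term and animals. Figures were drawn with matplotlib 3.10.9.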

Additional observations from a re-analysis of the deposited data

Results flagged for a closer look

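Of 18 groups of 6 animals checked, 1 had an animal far from the rest. Msln in nontransgenic 6 was 8.57 on the log2 scale, the highest of its genotype, and the nearest other nontransgenic animal was at 8.20, a gap of 0.642 of the whole range. Chance alone marks about 1 in 20 groups in this way. Without nontransgenic 6 the Msln difference between genotypes was 0.17 and still did not pass, and the Wt1 difference relative to Msln was -0.88 (limma adjusted p = 0.0152).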

How the results depend on the processing

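No paired analysis was possible because the replicate numbers of the animals are only accession order and the numbered pool arrays are technical repeats. In every alternative, and without each animal, 0 members passed the genotype test and 0 followed the collagen mean or Msln across all probes. All testable members stayed past the threshold relative to the collagen mean, except Wt1 with dim values raised; with probes above noise on all 12 animals 3 members remained testable. Relative to Msln the 2 collagen calls became 0 under that filter, which removes both, and 1 with dim values raised, and without single animals the count was 2 to 3. With the collagen mean as a term the genotype difference turned to 0.29 for Krt7, 0.077 for Krt8, 1.13 for Upk3b, 0.16 for Wt1 and, by construction, 0.19 for Col3a1. Krt18 turned to 0.027 with dim values raised and Upk3b to 0.027 without transgenic 1 and transgenic 6. Without single animals the differences ran from -0.096 to 0.072 for Krt7, -0.098 to 0.022 for Krt18, -0.20 to 0.029 for Upk3b and -0.76 to -0.56 for Wt1 (adjusted p of 0.0603 to 0.329). The r of Krt8 with collagen was -0.018 with Col1a1 alone, -0.068 in transgenic animals, 0.80 in nontransgenic animals and 0.095 to 0.77 without single animals. The r of Krt18 was 0.11 by ranks, 0.19 with dim values raised, 0.026 with Dcn, 0.55 in nontransgenic animals and -0.26 to 0.16 without single animals. The r of Msln was 0.086 by ranks, 0.049 with Col1a1 alone, 0.16 with Dcn, 0.079 in transgenic animals and -0.29 to 0.062 without single animals. For each of these the cause was not tested. With Dcn as the term, Upk3b and Wt1 had r of 0.75 and 0.71, and 8 probes of all tested followed it. Over all probes the genotype test called 77 probes, 42 with no filter, 33 above noise on all animals, 1 with the collagen term, 45 without transgenic 4 and 41 without nontransgenic 2. Relative to Msln it called 101, and 53, 49 and 194 with no filter, above noise on all animals and with array weights, and 60, 67 and 53 without transgenic 4, transgenic 5 or nontransgenic 2. Signal over background limits Krt8, Krt18, Krt19, Upk3b and Col3a1.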

Other observations

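RefSeq promoter windows (GRCm38.p6, 250 bases before to 50 after the annotated start) were given for 4 member genes, Upk3b, Krt7, Krt8 and Krt18. They were searched on both strands for GCGNGGGNG, the core shared by sites described for WT1 and for the related EGR factors. None of the 4 windows held these letters, against 12.3% of all 32851 windows of that length, which says only that the letters are not in these windows.

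Krt14, a keratin of basal stratified epithelium and no member, was 20.6 ± 29.5 units in transgenic and 72.0 ± 29.0 units in nontransgenic animals (SD, n = 6 each), a log2 difference of -0.54 that did not pass (limma adjusted p = 0.243). It was above noise in only 1 of 6 transgenic and in 5 of 6 nontransgenic animals. The other testable genes of its list, Krt10 and Cldn4, differed by 0.17 and -0.08. Cd79b, a B cell receptor subunit, was 404 ± 142 units in transgenic and 203 ± 108 units in nontransgenic animals (SD, n = 6 each), a log2 difference of 0.76 that did not pass (limma adjusted p = 0.205). The other testable B cell genes, Ms4a1 and Blk, differed by 0.13 and 0.009.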
